A study of Mus musculus with 12 samples.

Results

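A set of 9 genes of red blood cells was followed through the development of the mouse cerebral cortex: the embryonic beta-like globins Hbb-bh1 and Hbb-y, the embryonic alpha-like globin Hba-x, the adult alpha globins Hba-a1 and Hba-a2, the adult beta globins Hbb-bs and Hbb-bt, the haem enzyme gene Alas2 and the membrane gene Slc4a1. They were chosen by name, with earlier results of these data known. All 9 were found among the 50600 gene identifiers of the series and had enough reads to be tested, as did 17847 genes in all. The study, whose title names zinc uptake and storage, sequenced poly(A)+ RNA of the cerebral cortex of C57BL/6 mice (C57Bl6/J in the design text) at E11, E13, E17 (days of embryonic life) and on P1, the first postnatal day. No age carries a mutation or treatment in the labels. The 3 libraries of an age (A, B and C) were made from 3 animals of separate litters, 1 whole cortex each. Each cortex was lysed right after dissection, and whether blood was removed is not given in the sources used here.

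Haemoglobin is a tetramer of alpha-like and beta-like globin chains, each holding a haem group. In the mouse, the embryonic chains belong to the first wave of red cells, which arises in the yolk sac. Of these chains, Hbb-bh1 is the earlier and Hbb-y the later beta-like gene. Red cells made later in the fetal liver and bone marrow use the adult chains. The cortex is not a site of red cell formation, and its blood vessels carry these cells. In bulk counts, the wave that an adult chain's RNA came from cannot be told.

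The sequences bear on how far the genes can be told apart. In the GENCODE M21 annotation (GRCm38), the coding sequences of Hbb-bs and Hbb-bt differed at 1 of 444 bases and those of Hba-a1 and Hba-a2 at 1 of 429, so that a read from the coding part usually fits both copies. Hbb-bh1 and Hbb-y were 74.1% and 74.3% identical to Hbb-bs, and Hba-x was 62.0% identical to Hba-a1. The same stretch of the beta-like genes, coding bases 10 to 84 counted from the A of the start codon, is shown 5′ to 3′ with the length of a sequencing read (75 bases). Capitals mark bases that differ from Hbb-bs.
Hbb-bs: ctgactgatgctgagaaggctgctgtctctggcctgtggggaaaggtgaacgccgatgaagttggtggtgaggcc
Hbb-bt: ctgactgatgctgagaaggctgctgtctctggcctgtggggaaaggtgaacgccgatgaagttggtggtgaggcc
Hbb-y: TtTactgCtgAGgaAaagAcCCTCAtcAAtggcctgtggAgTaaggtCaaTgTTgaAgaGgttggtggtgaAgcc
Hbb-bh1: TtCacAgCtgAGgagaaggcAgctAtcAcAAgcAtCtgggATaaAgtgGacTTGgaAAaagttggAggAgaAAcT
Hbb-bt is identical to Hbb-bs here, while Hbb-y differs at 23 and Hbb-bh1 at 27 of the 75 bases. The alpha-like genes are shown over coding bases 4 to 78, with capitals where they differ from Hba-a1.
Hba-a1: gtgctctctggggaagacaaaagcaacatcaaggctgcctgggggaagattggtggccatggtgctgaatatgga
Hba-a2: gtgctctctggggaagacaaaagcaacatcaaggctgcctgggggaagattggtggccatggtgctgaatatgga
Hba-x: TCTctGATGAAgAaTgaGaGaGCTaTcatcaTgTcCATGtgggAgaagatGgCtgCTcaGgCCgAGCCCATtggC
Hba-a2 is identical to Hba-a1 in this stretch and Hba-x differs at 39 bases. Over the whole transcripts, 62.2% of the 75-base windows of Hba-a1 and 81.0% of those of Hba-a2 occurred in the other copy, as did 64.3% of the windows of Hbb-bs and 56.6% of those of Hbb-bt. No window of Hbb-bh1, Hbb-y, Hba-x, Alas2 or Slc4a1 occurred in another gene. How the authors counted reads that fit 2 genes is not given in the sources used here. The split between copies is therefore uncertain, and the adult globins may be undercounted against the embryonic ones. Shares of globin counts are given as counted and again with each gene's count divided by its number of windows that no other gene holds, a scale chosen after the data were seen.

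The start regions of an embryonic and an adult gene of each family are shown because the genes of a family moved apart with age. They are the 150 bases before the RefSeq start (GRCm38.p6), 5′ to 3′ on the gene's strand. Capitals mark 4 groups of letters, searched on either strand: CACCC, the core of sites bound by KLF factors; CCAAT, a common promoter box; GATAA, the core of GATA factor sites; and the TATA-like groups ATAAA or TATAA, which can overlap each other.
Hbb-y (chr7:103853208-103853357, minus strand): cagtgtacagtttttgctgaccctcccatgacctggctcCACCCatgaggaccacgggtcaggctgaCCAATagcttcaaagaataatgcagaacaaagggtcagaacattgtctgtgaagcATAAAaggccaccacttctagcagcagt
Hbb-bs (chr7:103827929-103828078, minus strand): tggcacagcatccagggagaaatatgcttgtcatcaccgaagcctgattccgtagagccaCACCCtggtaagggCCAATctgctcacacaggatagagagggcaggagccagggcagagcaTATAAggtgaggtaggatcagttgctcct
Hba-x (chr11:32276450-32276599, plus strand): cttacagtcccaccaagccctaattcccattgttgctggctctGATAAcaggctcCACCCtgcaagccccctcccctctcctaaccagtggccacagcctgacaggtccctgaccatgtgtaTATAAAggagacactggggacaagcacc
Hba-a1 (chr11:32283522-32283671, plus strand): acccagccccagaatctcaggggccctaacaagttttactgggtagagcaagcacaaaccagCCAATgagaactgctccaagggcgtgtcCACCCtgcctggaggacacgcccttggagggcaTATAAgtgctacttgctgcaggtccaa
CACCC lay 111 bases before the start in Hbb-y, 90 in Hbb-bs, 95 in Hba-x and 60 in Hba-a1. CCAAT lay 83, 76 and 88 bases before the start in Hbb-y, Hbb-bs and Hba-a1, and GATAA 107 bases before the start in Hba-x. ATAAA or TATAA began 27 to 29 bases before the start in these 4 genes. Of 32851 promoters in the RefSeq table, 37.4% held CACCC, 24.5% CCAAT, 13.3% GATAA and 28.7% ATAAA or TATAA in the same window. A match is a run of letters and was not tested as a binding site. Of the 9 genes, 7 had a promoter in that table.

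The labelled tissue was checked first. Tbr1, a factor of deep-layer cortical neurons, had a mean of 101, 219, 296 and 190 CPM (counts per 1e6 counts of the scaled library) at E11, E13, E17 and P1. It is on a list of 8 cortical markers, which summed to 1450 to 1640, 2340 to 2580, 1680 to 2100 and 1220 to 1390 CPM. These markers did not move together. From E13 to E17, 5 of the 8 fell and 2 rose (edgeR adjusted p under 0.05), where 37% of all tested genes fell and 36.8% rose. Total counts ran from 28173745 to 45858712 per library. The 9 red cell genes took 0.626 to 1.77% of all counts at E11, 0.0829 to 0.185% at E13, 0.0154 to 0.0319% at E17 and 0.00419 to 0.00778% at P1. These are bulk samples, in which fewer red cells and less RNA per red cell cannot be told apart. Libraries of an age differed in all red cell genes together: E11 A was the highest E11 library for 8 of the 9 genes and E11 B the lowest for 8, while E13 C was highest and E13 B lowest for 8. At E17, library C was highest and B lowest for all 6 genes with more than 30 counts at that age. Libraries E11 C, E13 B and P1 B stood apart within their age in the make-up of their red cell counts, and their values are given where they matter.

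**Figure D1:**
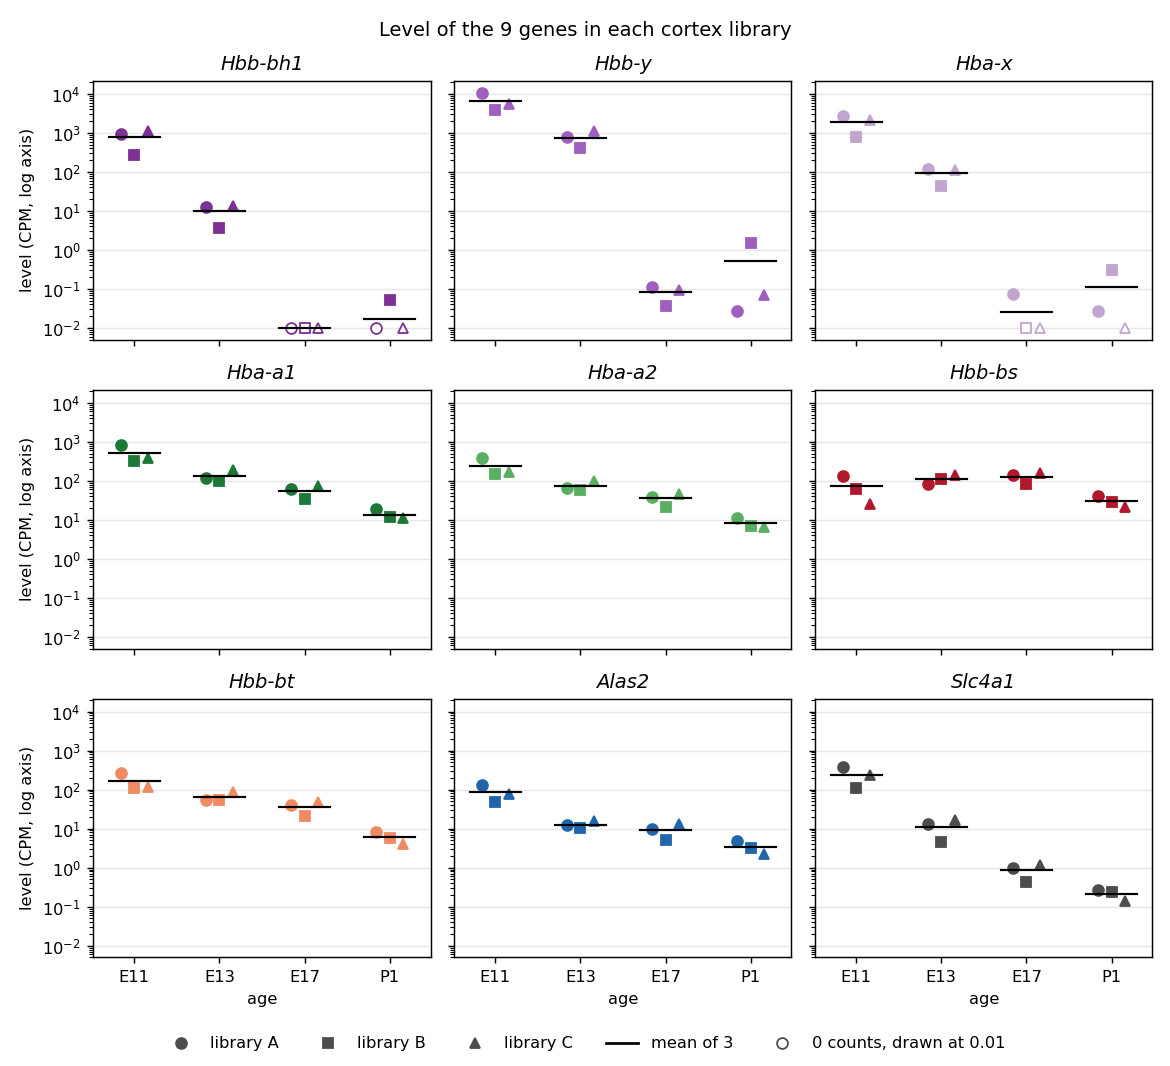
Level of each gene in each library (CPM on a log axis) at E11, E13, E17 and P1, with 1 marker per library and a line at the mean of 3. The embryonic globins fall from means of 762 to 6670 CPM at E11 to means under 1 CPM at E17, the adult globins differ less between ages, and Hbb-bs is the gene whose E11, E13 and E17 libraries overlap.

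The embryonic globins were highest at E11 and were at 0 to 58 counts per library from E17 on. Hbb-y, the embryonic epsilon-type chain, held 360981, 131398 and 171613 counts in A, B and C of E11, which made it the 1st, 3rd and 2nd most counted gene of those libraries. At E13 it held 29896, 14228 and 35208 counts, at E17 3, 1 and 4, and at P1 1, 58 and 3. Every E11 library lay above every E13 library, and every E13 library far above E17 and P1.

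Hbb-bh1, the earlier embryonic beta-like chain, held 31301, 8952 and 34472 counts at E11 and 474, 127 and 430 at E13. It had no count in any E17 library, and 0, 2 and 0 counts at P1. Hba-x, the zeta chain that pairs with the embryonic beta-like chains, held 93191, 27271 and 65463 counts at E11, 4551, 1575 and 3622 at E13, 2, 0 and 0 at E17, and 1, 12 and 0 at P1. Both genes were without overlap between E11 and E13.

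The adult alpha globins had lower levels at each later age. Hba-a1 had 824.6, 313.5 and 388.4 CPM at E11, 119.0, 99.86 and 186.5 CPM at E13, 60.03, 34.7 and 73.21 CPM at E17, and 18.38, 11.65 and 10.84 CPM at P1. Hba-a2 had a mean of 236 ± 132, 73.8 ± 23.9, 35.7 ± 12.6 and 8.28 ± 2.64 CPM at the 4 ages (SD, n = 3 each). For both genes the libraries of neighbouring ages did not overlap at any step.

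The adult beta globins differed in course from each other. Hbb-bs had 134.2, 62.05 and 25.64 CPM in the E11 libraries, 85.08, 109.5 and 142.3 CPM at E13, 137.2, 81.31 and 161.2 CPM at E17, and 40.62, 27.96 and 21.7 CPM at P1. The E11 library A was as high as the E13 and E17 libraries and E11 C was the lowest of the 9 embryonic libraries, so these 3 ages overlapped, while P1 lay below both E13 and E17. Hbb-bt had a mean of 162 ± 85.9, 65.0 ± 18.8, 36.6 ± 13.6 and 6.07 ± 2.2 CPM (SD, n = 3 each), with no overlap between neighbouring ages.

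Alas2 encodes the red cell form of the first enzyme of haem synthesis. It had 133.9, 47.37 and 75.62 CPM at E11, 12.2, 10.33 and 15.77 CPM at E13, 9.961, 5.084 and 13.48 CPM at E17, and 4.794, 3.119 and 2.196 CPM at P1. The E13 and E17 libraries overlapped, and each E11 library lay above all others. Slc4a1 encodes band 3, the anion exchanger and main membrane protein of the red cell. It had 371.8, 110.9 and 236.8 CPM at E11, 12.86, 4.66 and 16.48 CPM at E13, 0.985, 0.43 and 1.196 CPM at E17, and 0.266, 0.232 and 0.143 CPM at P1, with no overlap at any step.

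Per kilobase of transcript, the order of the genes changed with age. At E11 the mean level was 10500 CPM per kilobase for Hbb-y, 2350 for Hba-x, 1240 for Hbb-bh1, 728 for Hba-a1, 426 for Hba-a2, 231 for Hbb-bt, 118 for Hbb-bs, 52.8 for Slc4a1 and 42.0 for Alas2. Only Hbb-y stood clear of its neighbour in that order, in that its lowest library lay above the highest of Hba-x. At E17 Hbb-bs was first with 202 ± 65.2 CPM per kilobase (SD, n = 3), clear of Hba-a1 with 80.1 ± 28, while Hba-a1, Hba-a2 (64.4 ± 22.8) and Hbb-bt (52.1 ± 19.3) overlapped their neighbours. Alas2, at 4.67 ± 2.07 CPM per kilobase, lay below these and above Slc4a1 at 0.191 ± 0.0871. At P1 Hbb-bs again led with 47.9 ± 15.3 CPM per kilobase, against 19.5 ± 5.92 for Hba-a1, 14.9 ± 4.77 for Hba-a2 and 8.64 ± 3.13 for Hbb-bt. These levels of the 4 adult genes carry the uncertainty about shared reads.

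Between E11 and E13, 8 of the 9 genes fell in edgeR's quasi-likelihood test (Benjamini-Hochberg adjusted p under 0.05 over all tested genes) and none rose, where 17.5% of all tested genes were lower and 22.6% higher. Their median log2 fold change was -2.75, beside 0.0 over all tested genes. At an unadjusted p under 0.05 in edgeR, and in DESeq2 and limma-voom, again 0 of the 9 were higher here, as at E17 against E13 and at P1 against E11. Hbb-bh1 fell most, by 6.28 ± 0.77 on the log2 scale (SE; edgeR adjusted p = 0.000973), or 78.0-fold. Slc4a1 fell by 4.41 ± 0.54 (edgeR adjusted p = 0.000253) and Hba-x by 4.35 ± 0.57 (edgeR adjusted p = 0.000379), each by about the same factor, 21.2-fold and 20.4-fold. Hbb-y fell less than the other embryonic chains, by 3.14 ± 0.66 (8.79-fold; edgeR adjusted p = 0.00553), although the difference between the genes was not tested.

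Alas2 fell by 2.75 ± 0.45 (edgeR adjusted p = 0.00113). Of the adult globins, Hba-a1 fell by 1.91 ± 0.44, Hba-a2 by 1.68 ± 0.44 and Hbb-bt by 1.32 ± 0.43 (edgeR adjusted p = 0.0085, 0.0149 and 0.0361). Hbb-bs, with a log2 fold change of 0.60 ± 0.55, did not pass (edgeR adjusted p = 0.425). It was 1.35 without E11 A and 0.19 without E11 C, the extremes of all runs with 1 library left out. The call of Hbb-bt was lost with no filter on low counts and with only these ages fitted (adjusted p = 0.0747 and 0.0686), and without E11 A (-0.80, adjusted p = 0.118), E13 A (adjusted p = 0.104), E13 B (adjusted p = 0.122) or E17 A (adjusted p = 0.0517). That of Hba-a2 was lost without E13 A or E13 B (adjusted p = 0.0514 and 0.0643).

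Between E13 and E17, 5 of the 9 genes fell and none rose, while 37% of all tested genes were lower and 36.8% higher. Their median log2 fold change was -1.27, beside -0.04 over all tested genes. The 3 embryonic globins were at 0 to 4 counts per library at E17. Hbb-bh1 had 1031 counts over the E13 libraries and none over those of E17, which makes it at least 315-fold lower when the limit is set at 3 counts over the 3 libraries. Hbb-y had 79332 counts at E13 and 8 at E17, a ratio of 9090 with a 95% exact counting interval of 4610 to 21000. Hba-x had 9748 and 2 counts, a ratio of 4470 with an interval of 1240 to 36900. These intervals pool the counts of an age's libraries and leave out the spread between animals. All 3 genes passed the test (edgeR adjusted p = 0.00674, 9.01e-06 and 1.26e-05).

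Slc4a1 fell by a further 3.63 ± 0.78 on the log2 scale (12.4-fold; edgeR adjusted p = 0.00243), whereas the log2 fold change of Alas2 was -0.40 ± 0.46 (edgeR adjusted p = 0.447). Hba-a1 fell by 1.27 ± 0.44 (edgeR adjusted p = 0.0285), and its near copy Hba-a2 missed the threshold with -1.04 ± 0.45 (edgeR adjusted p = 0.0608). The call of Hba-a1 was lost with no filter on low counts (adjusted p = 0.0646) and without E13 C, E17 A or E17 B (adjusted p = 0.104, 0.0647 and 0.0958), while Hba-a2 passed in 8 alternatives. These were DESeq2 and limma-voom (adjusted p = 0.0427 and 0.0269), upper-quartile factors, library size alone and a filter at 1 CPM (adjusted p = 0.0453, 0.0312 and 0.0471), only these ages fitted (adjusted p = 0.024), the library letter as a block (adjusted p = 0.0267), and without E11 A (adjusted p = 0.0176). Hbb-bt and Hbb-bs had log2 fold changes of -0.82 ± 0.44 and 0.18 ± 0.54 and did not pass (edgeR adjusted p = 0.119 and 0.781). The sign for Hbb-bs turned when libraries were scaled by size alone (-0.01) and without E17 C (-0.04).

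From E17 to P1 the adult globins fell together. In all, 5 of the 9 genes fell and none rose, while 25.9% of all tested genes were lower and 24% higher. The median log2 fold change of the 9 genes was -2.05 and that of all tested genes 0.0. Among the 9 are Hbb-bh1, Hbb-y and Hba-x, with 0, 8 and 2 counts over the E17 libraries, too few for a fall to be seen. Their fitted values enter this median but are no measure of size. Hbb-bt fell by 2.61 ± 0.50, Hba-a2 by 2.12 ± 0.50, Hbb-bs by 2.08 ± 0.57 and Hba-a1 by 2.05 ± 0.48 on the log2 scale (edgeR adjusted p = 0.0023, 0.00668, 0.0154 and 0.00673), that is by 6.09, 4.34, 4.22 and 4.13-fold. Alas2 fell by 1.52 ± 0.51 (edgeR adjusted p = 0.031). Slc4a1 had a similar log2 fold change of -2.09 but a larger error (1.55) at its low counts, 26, 12 and 51 at E17 and 10, 9 and 6 at P1, and did not pass in edgeR (adjusted p = 0.299). It passed in DESeq2 (adjusted p = 0.00795).

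The calls of Hbb-bs and Alas2 at this step were each lost when single libraries were left out. Hbb-bs missed the threshold without E17 C, P1 B or P1 C (adjusted p = 0.0521, 0.051 and 0.0608), and Alas2 without those libraries (adjusted p = 0.134, 0.0847 and 0.113), E13 A (adjusted p = 0.0502) or E17 A (adjusted p = 0.0717). Alas2 also missed it in limma-voom (adjusted p = 0.0702) and with no filter on low counts (adjusted p = 0.0768). The count of genes called was 3 without E17 C, P1 B or P1 C. Hbb-y, Hba-x and Hbb-bh1 had 8, 2 and 0 counts over the E17 libraries and 62, 13 and 2 over those of P1 and did not pass in edgeR (adjusted p = 0.305, 0.636 and 0.871; 0 of the 9 genes were higher at an unadjusted p under 0.05, and 0 in limma-voom). Of the P1 counts, 58, 12 and 2 lay in library B alone. Without P1 B, 4 Hbb-y counts and 1 Hba-x count remained at that age. Their log2 fold changes were then -0.65 and -0.56, from 2.62 and 2.23 with all libraries. Hbb-y passed as higher in DESeq2 (adjusted p = 0.0294).

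**Figure D2:**
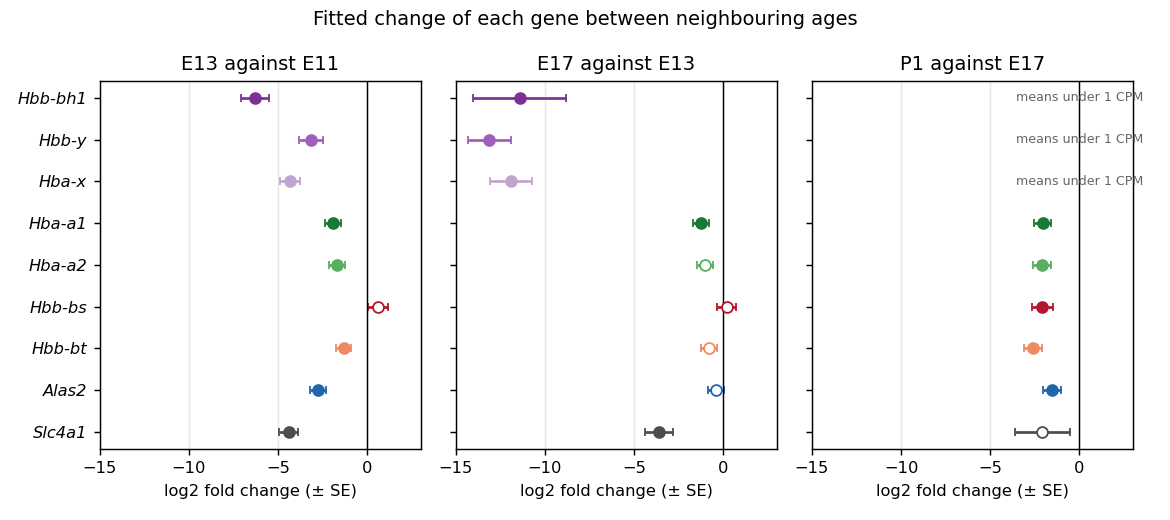
Fitted log2 fold change of each gene between neighbouring ages (x axis; bars are ± 1 SE), filled where the edgeR adjusted p is under 0.05. The embryonic globins and Slc4a1 lie left of the other genes at the first 2 steps. At the last step the adult globins lie between -2.61 and -2.05, with Slc4a1 at -2.09 (not called). Fitted values of genes with almost no counts at E17 depend on the prior count and are no measure of size.

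Over the whole span, 8 of the 9 genes were lower at P1 than at E11 and none higher, with 41.8% of all tested genes lower and 40.5% higher. Hba-a1, Hba-a2, Hbb-bt and Alas2 fell by 5.23 ± 0.52, 4.84 ± 0.52, 4.75 ± 0.52 and 4.67 ± 0.51 on the log2 scale (edgeR adjusted p = 1e-05, 1.63e-05, 1.74e-05 and 1.24e-05), and Slc4a1 by 10.12 ± 0.85 (edgeR adjusted p = 2.52e-06). Hbb-bs had a log2 fold change of -1.30 ± 0.56 and did not pass (edgeR adjusted p = 0.0585), though it did without E11 C (-1.71, adjusted p = 0.00702). Its log2 fold change ran from -1.71 to -0.55 with 1 library left out, with an edgeR adjusted p of up to 0.294. In the test across the 4 ages all 9 genes passed, where 90.2% of all tested genes did, so that this count says little of these genes. Hbb-bs had the highest edgeR adjusted p of them (0.033) and missed the threshold in 8 of the 12 runs with 1 library left out, at most with 0.114 (without P1 C).

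The switch from embryonic to adult chains was then read within each library, as the embryonic share of globin counts, a ratio taken within 1 library. For the beta-like genes, Hbb-bh1 and Hbb-y made up 96.7, 96.1 and 97.9% of the counts of the 4 genes in A, B and C of E11. At E13 the share was 85.2, 71.2 and 82.8%. It was 0.0638, 0.0348 and 0.0449% in the E17 libraries, from 3, 1 and 4 counts, and 0.0543, 4.39 and 0.277% in those of P1. The libraries of E11, E13 and E17 did not overlap, those of E17 and P1 did, and the share differed across the ages (exact permutation test of the spread between ages over 15400 groupings of the 12 libraries, p = 0.00013; the smallest p it allows is 6.5e-05). The mean was 96.9 ± 0.913% at E11, 79.7 ± 7.5% at E13, 0.0478 ± 0.0147% at E17 and 1.57 ± 2.44% at P1 (SD, n = 3 each). Without P1 B the P1 mean was 0.166%.

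For the alpha-like genes, the Hba-x share of the 3 genes was 69.4, 63.2 and 79.0% at E11 and 39.7, 22.0 and 28% at E13. At E17 it was 0.0768% in A and 0 in B and C, whose counts allow shares of up to 0.19 and 0.0587%. At P1 it was 0.0896% in A, 1.63% in B and 0 in C, where up to 0.412% is allowed. The share differed across the ages (exact permutation test, p = 0.00026, which is also the adjusted p of both shares over the 2 tested). Its mean was 70.6 ± 7.96% at E11 and 29.9 ± 8.98% at E13 (SD, n = 3 each), each lower than the beta-like share of the same age, in all 6 libraries. The exact 95% binomial intervals of all shares at E11 and E13 were at most ± 1.33 percentage points wide, and cover counting error only.

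Both shares moved when counts were divided by the windows that no other gene holds. The beta-like embryonic share became 93.2 ± 2.12% at E11 and 61.4 ± 10.9% at E13, and the alpha-like share 35 ± 9.46% and 8.35 ± 3.36% (SD, n = 3 each). The order of the ages and of the 2 families was the same on this scale, and the exact permutation p of each was as before (0.00013 and 0.00026). The size of the alpha-like share at E11, above or below 50%, thus depends on how shared reads were counted.

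**Figure D3:**
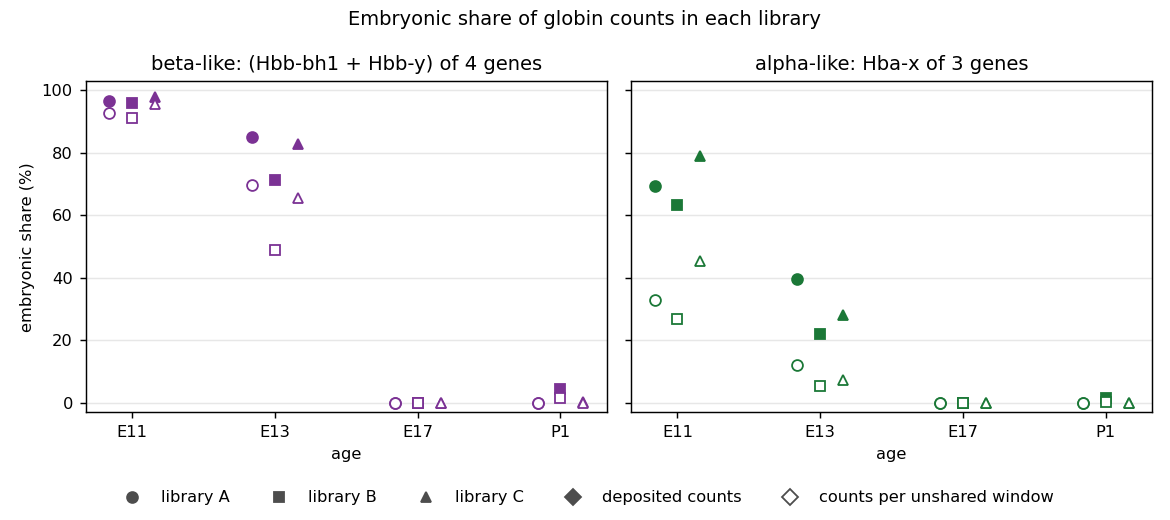
Embryonic share of beta-like (left) and alpha-like (right) globin counts in percent, 1 marker per library, filled for the deposited counts and open for counts divided by each gene's unshared windows. Both drop from E11 to E13 and lie near 0 at E17, with P1 B the highest of the P1 libraries.

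Within the embryonic beta-like genes, the Hbb-bh1 share of Hbb-bh1 and Hbb-y counts was 7.98 and 6.38% in E11 A and B and 16.7% in E11 C. At E13 it was 1.56, 0.885 and 1.21%, below every E11 library. Its mean was 10.4 ± 5.57% at E11, or 7.18% without E11 C, and 1.22 ± 0.338% at E13 (SD, n = 3 each). At E17 and P1 too few embryonic counts were left for a share outside P1 B, where 2 of 60 counts were of Hbb-bh1 (3.33%, exact 95% interval 0.406 to 11.5%).

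Within the adult beta genes, the Hbb-bs share of Hbb-bs and Hbb-bt counts was larger at each later age. It was 33.9, 36.5 and 17.8% in the E11 libraries, 61, 67.0 and 62.1% at E13, 77.0, 79.2 and 77.2% at E17, and 82.8, 83.0 and 84.2% at P1. No library overlapped with a neighbouring age, and E11 C, which had the largest Hbb-bh1 share, had the smallest Hbb-bs share. The mean was 29.4 ± 10.1, 63.4 ± 3.21, 77.8 ± 1.17 and 83.3 ± 0.782% (SD, n = 3 each), and 36.2, 70.5, 82.9 and 87.3% per unshared window. No test was made of this share.

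Within the adult alpha genes the share varied less. Hba-a1 made up 68.4 ± 1.6, 64.6 ± 0.623, 61.1 ± 0.229 and 62.3 ± 0.331% of Hba-a1 and Hba-a2 counts at E11, E13, E17 and P1 (SD, n = 3 each). Per unshared window these were 45.5, 41.3, 37.7 and 38.9%, so which copy leads depends on how shared reads were counted. The alpha-like genes together made up 25.3 ± 2.75, 24.5 ± 1.53, 35.9 ± 0.531 and 37.6 ± 2.64% of all 7 globins' counts, and 33.8, 41.1, 44.7 and 46.1% per unshared window.

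Relative to globin, Alas2 was higher and Slc4a1 lower at P1 than at E11. Per 1000 counts of the 7 globins, Alas2 had 8.4, 8.49 and 8.09 counts in the E11 libraries, 9.79, 13.5 and 9.13 at E13, 36.0, 31.9 and 41.0 at E17, and 60.9, 57.5 and 50.8 at P1. Slc4a1 had 23.3, 19.9 and 25.3 per 1000 at E11, 10.3, 6.08 and 9.54 at E13, 3.56, 2.7 and 3.64 at E17, and 3.38, 4.28 and 3.31 at P1. As counted, Alas2 per globin was higher at each later age without overlap, while Slc4a1 was lower at E13 and again at E17 and overlapped between E17 and P1. Per unshared window the order of Slc4a1 was as counted, but Alas2 had 2.01, 1.97 and 2.06 per 1000 at E11 and 1.81, 2.04 and 1.59 at E13, so that these ages overlapped, and it lay higher at E17 (2.96 to 3.79) and at P1 (4.62 to 5.57). In E11 A there were 0.36 counts of Alas2 for each count of Slc4a1, and in P1 A 18.0. At E13 there were 2.22 in library B, against 0.949 and 0.957 in A and C. The mean ratio of Alas2 to globin was 6.77 times as high at P1 as at E11, or 2.59 times per unshared window. For Slc4a1 it was 6.24 times lower, or 16.4 times per unshared window. No test was made of these ratios.

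**Figure D4:**
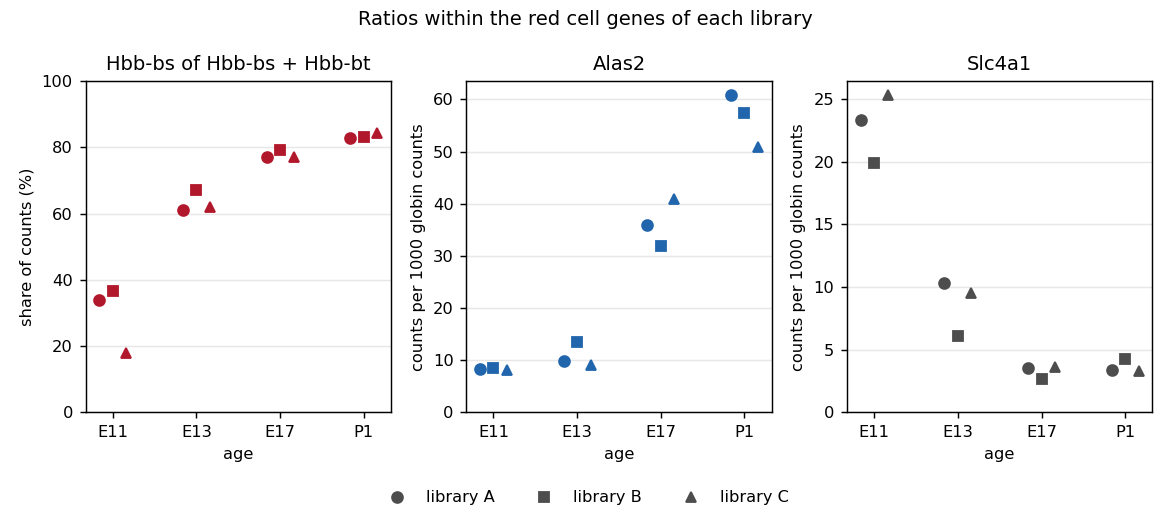
Hbb-bs share of adult beta globin counts in percent (left), and Alas2 (middle) and Slc4a1 (right) per 1000 globin counts, with 1 marker per library at E11, E13, E17 and P1. As counted, the Hbb-bs share and Alas2 lie higher at each later age and Slc4a1 lower until E17, with E11 C lowest of all for Hbb-bs; per unshared window, which is not plotted, Alas2 overlaps between E11 and E13.

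Other genes of the red cell, on 6 lists, were read beside these 9. Over all tested genes, the shares that fell at the 3 steps were 17.5, 37 and 25.9%, with median log2 fold changes of 0.0, -0.04 and 0.0. The shares that rose were 22.6, 36.8 and 24%. Of 12 genes of the red cell membrane and skeleton, 10 fell and 1 rose from E11 to E13, with a median log2 fold change of -4.02 (-1.29 and -0.26 at the later steps). Rhag, the Rh-associated glycoprotein, fell from 8.99 ± 4.46 to 0.145 ± 0.11 CPM (SD over 3 libraries; log2 fold change -5.95, edgeR adjusted p = 3.17e-05). Add2, an adducin also found in neurons, rose (log2 fold change 0.34, edgeR adjusted p = 0.0144), but not without E13 B (adjusted p = 0.0645) or with only these ages fitted (adjusted p = 0.0642). From E13 to E17, 5 fell and 3 rose (2 to 8 fell in runs with 1 library left out, 2 of them without E13 C or E17 B and 8 without E11 B). Kel, the Kell blood group protein, fell from 1.11 ± 0.538 to 0.0126 ± 0.0219 CPM (edgeR adjusted p = 0.00205), while Ank1, an ankyrin of red cells and neurons, rose from 7.11 ± 0.991 to 39.0 ± 2.81 CPM (SD, n = 3 each; edgeR adjusted p = 0.000138).

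From E17 to P1, 1 gene of this list fell and 2 rose. Tmod1, which caps actin filaments, had the largest rise (log2 fold change 1.5, edgeR adjusted p = 0.0217), lost with no filter on low counts (adjusted p = 0.0751) and without E17 A, E17 C or P1 C (adjusted p up to 0.0972). Epb41, protein 4.1, had the only fall (-0.25, edgeR adjusted p = 0.0401), which was lost with RLE factors, upper-quartile factors and a filter at 1 CPM (adjusted p = 0.0585, 0.0662 and 0.0536) and in 8 of the 12 runs with 1 library left out, up to an adjusted p of 0.195 without P1 C.

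Of the 11 genes of haem synthesis other than Alas2, 7 fell and 0 rose from E11 to E13 (0 also at an unadjusted p in edgeR, in DESeq2 and in limma-voom). The list's median log2 fold change was -0.32, 0.02 and -0.09 at the 3 steps. From E13 to E17, 4 fell and 2 rose, with the largest rise in Uros (log2 fold change 0.41, edgeR adjusted p = 0.00173). From E17 to P1, 3 fell, led by Urod (-0.38, edgeR adjusted p = 0.00271), and Abcb10, a mitochondrial transporter, rose (0.33, edgeR adjusted p = 0.011). The count of 3 was 1 without E17 B, E17 C or any 1 of the P1 libraries. The falls of 4 and 3 of the 11 genes at these later steps were near the shares of all tested genes (37 and 25.9%). The rises of 2 and 1 were below those shares (36.8 and 24%). Alas1, the form of the first enzyme used outside red cells, had a mean of 37.6, 40.1, 41.4 and 39.0 CPM at the 4 ages.

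Of 12 tested genes of red cell cytoplasm and maturation, 10 fell and 1 rose from E11 to E13, and the list's median log2 fold change was -1.57, -0.8 and 0.39 at the 3 steps. Hemgn, a nuclear protein of blood progenitors, fell from 17.8 ± 15.9 to 0.132 ± 0.0674 CPM (SD over 3 libraries; log2 fold change -7.03, edgeR adjusted p = 0.000294). Fam210b rose at this step and at the next (log2 fold change 1.15 and 0.68, edgeR adjusted p = 0.00116 and 0.00857) and fell at the last (-0.57, edgeR adjusted p = 0.0321). The last call was lost with no filter on low counts (adjusted p = 0.104) and without E17 A, E17 C, P1 B or P1 C (adjusted p up to 0.138). From E13 to E17, 6 genes fell and 1 rose, and Slc25a37, the mitochondrial iron importer mitoferrin-1, had the largest fall, from 31.0 ± 2.8 to 6.24 ± 0.564 CPM (SD, n = 3 each; edgeR adjusted p = 0.000148). From E17 to P1, 3 of the 12 rose and 2 fell, where 24% of all tested genes rose and 25.9% fell. The largest rise was in Steap3, a ferrireductase (0.98, edgeR adjusted p = 0.0154). The count of 3 ran from 2 to 5 with 1 library left out (5 without E11 B) and was 5 with only these ages fitted, 4 in DESeq2 and 2 in limma-voom. The count of 2 was 1 in the same runs that lost Fam210b.

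Of the 9 erythroid regulators, 8 fell and 0 rose from E11 to E13 (0 also at an unadjusted p in edgeR, in DESeq2 and in limma-voom). Their median log2 fold change was -2.69, -1.47 and 0.2 at the 3 steps. Nfe2, which drives globin genes with its partner Maf proteins, fell from 8.95 ± 4.46 to 0.556 ± 0.234 CPM (SD, n = 3 each; edgeR adjusted p = 2.56e-05). Gata1, the master factor of the lineage, had a mean of 4.73, 0.287 and 0.0505 CPM at E11, E13 and E17, and it and Gfi1b had no count at P1. From E13 to E17, 5 fell and 1 rose, with the largest fall in Tal1 (log2 fold change -1.47, edgeR adjusted p = 0.00537). Zfpm1, the partner of GATA factors, rose at that step (0.50, edgeR adjusted p = 0.0156) and at the last (0.64, edgeR adjusted p = 0.00521), when Ldb1 had the only fall (-0.29, edgeR adjusted p = 0.0087). Zfpm1 was the only gene to rise at the last step, whereas 2 rose without E11 B, E11 C or E13 B, under the block and in DESeq2, and 3 with only these ages fitted. The call of Ldb1 was lost without P1 B or P1 C (adjusted p up to 0.0617), and the rise of Zfpm1 at E17 when libraries were scaled by size alone (adjusted p = 0.101).

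The 9 regulators of globin choice, several of which neurons or their progenitors also express, moved in both directions. From E11 to E13, 2 of the 9 rose and 2 fell, near the shares of all tested genes (22.6 and 17.5%). The list's median log2 fold changes were 0.05, -0.28 and -0.27 at the 3 steps. Bcl11a, a repressor of embryonic and fetal globin genes that is also a factor of cortical neurons, rose from 159 ± 9 to 319 ± 53.4 CPM (SD, n = 3 each; edgeR adjusted p = 2.98e-06) and to 454 ± 8.92 CPM at E17 (edgeR adjusted p = 0.000187). Lin28b, an RNA-binding protein of early stages, fell from 17.6 ± 5.93 to 4.24 ± 0.954 CPM at E13 (SD, n = 3 each; edgeR adjusted p = 3.56e-05). From E13 to E17, 2 rose and 5 fell, with the largest fall in Myb (log2 fold change -1.81, edgeR adjusted p = 5.3e-08). From E17 to P1, 6 fell, led by Nr2f2 (-1.16, edgeR adjusted p = 0.015), whose call was lost without E17 C or P1 C (adjusted p up to 0.0635). The count of 6 ran from 3 to 6 with 1 library left out, and was 3 without E17 C or P1 C. The red cells' part in these levels was not tested.

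Of 8 other globins, 4 could be tested, with a median log2 fold change of -0.13, 1.07 and 0.56 at the 3 steps. Hbq1b, a theta globin of the alpha cluster, fell from 1.87 ± 1.24 to 0.163 ± 0.0814 CPM from E11 to E13 (SD, n = 3 each; edgeR adjusted p = 0.000678). Cygb, the globin of connective tissue and some neurons, rose at the first and second step (log2 fold change 1.10 and 0.85, edgeR adjusted p = 0.00286 and 0.00362). Ngb, the globin of neurons, rose from 0.41 ± 0.174 to 1.87 ± 0.45 CPM from E17 to P1 (SD, n = 3 each; edgeR adjusted p = 6.53e-05). Hbb-bh0, a minor gene of the beta cluster, had means of 1.4 and 0.966 CPM at E11 and E13 and no count at E17 or P1.

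Markers of other cells of blood and vessels were summed in each library. The 10 endothelial markers summed to 314 to 389 CPM at E11, 266 to 342 at E13, 203 to 246 at E17 and 178 to 220 at P1, and the 10 of microglia and macrophages to 74.4 to 85.9, 55.3 to 84.7, 56.8 to 81.6 and 77.2 to 92.5 CPM. The 6 pericyte markers summed to 306 to 318, 260 to 294, 202 to 219 and 172 to 183 CPM. Much of this sum was Notch3, with a mean of 226, 169, 41.2 and 39.0 CPM, while Rgs5 had 18.1, 38.3, 95.6 and 80.2 CPM. Of the 6, 3 were higher and 3 lower at P1 than at E11 (edgeR adjusted p under 0.05), with a median log2 fold change of 0.0. Of the 10 endothelial markers 1 was higher and 7 lower, and of the 10 of microglia and macrophages 5 were higher and 1 lower. Each of these sums thus holds genes that moved in both directions. Over all tested genes, 40.5% were higher and 41.8% lower. The part of these cell types in the fall of the red cell genes was not tested. Among 8 markers of megakaryocytes and platelets, 7 fell and 1 rose at each of the first 2 steps. The platelet chemokine gene Pf4 had a mean of 7.96, 2.98, 0.0953 and 0.105 CPM, while Gp1bb had 11.5, 25.8, 107 and 158 CPM. The 8 granulocyte markers summed to at most 5.41 CPM in any library. Elane had 1 count in E11 A and none in any other library, too few to show a change. Prtn3 had means of 1.71, 2.67, 2.84 and 3.82 CPM at the 4 ages.

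Some genes ran close in pattern to 3 of the 9. Likeness was the Pearson correlation of log2 CPM over the 12 libraries, which share the 4 ages, so it is given as a description. The 9 genes themselves were left out of the ranking. For Hbb-bh1 the 5 most alike named genes outside the 9 included Sall2, Epb42, Tspo and Pabpc4 (r from 0.992 to 0.996). Of these, Epb42, protein 4.2 of the red cell membrane, had means of 20.0, 1.16, 0.0402 and 0.0254 CPM, while Sall2 only went from 208 to 98.1 CPM between E11 and P1. For Alas2 they included Prdm4, Trim10 and Arid3a (0.965 to 0.969), where Trim10 is a gene of red cell maturation. For Hbb-bs they were Epb41l3, Kat6a, Tox4, Zfp369 and Zfp462 (0.887 to 0.916), none of them known as a red cell gene. Hbb-bs had an r of 0.059 with Hbb-bh1 and 0.591 with Hbb-bt, against 0.998 between Hba-a1 and Hba-a2 and 0.993 between Hbb-y and Hba-x.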

How the data were processed

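RNA of 12 cortex libraries (4 ages, 3 animals each) was analysed. The deposited values are raw read counts per Ensembl gene identifier, per the file headers and the values, 50600 per library. Per the labels' protocols, poly(A)+ RNA was taken from 1 µg of total RNA and sequenced from stranded TruSeq libraries as 75 bp single reads, all 12 on a flowcell. Tools in the submitters' processing notes are STAR 2.5.2b, HTSeq 0.5.3, DESeq2 1.8.1, bcl2fastq 2.18 and SAMtools; their roles, the genome build, annotation, strand setting and handling of reads that fit several genes were not given in the sources used here.

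Symbols were matched by identifier (224 had none). In R 4.3.3 with edgeR 4.0.16, genes passing filterByExpr (minimum count 10) were scaled by TMM and fitted with a robust quasi-likelihood model of age over all 12 libraries; p-values are two-sided, adjusted over 17847 genes, threshold 0.05. CPM use the library size after TMM scaling. Scripts were tested on simulated data. By the labels, library letters pair no animals. Libraries of the same letter at different ages had correlations of deviations from the age mean of -0.343 to 0.33. Pairs of different letters were not compared, so these values cannot show whether the letters share structure. Shares and exact tests used Python with scipy. Where no gene was counted, a limit of 3 counts over an age's libraries (per library for shares) was used, covering counting error only.

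The 9 genes and the gene lists were chosen with earlier results of these data known. Named from the lists were, in each neighbouring comparison, the largest rise and fall past the threshold with at least 1 CPM at an age. A few others (Gata1, Gfi1b, Alas1, Hbb-bh0, Tbr1, Pf4, Gp1bb, Elane, Notch3, Rgs5, Prtn3) are given as values only and were picked after their values were seen. Results of some genes under these rules are not reported here. Alternatives were RLE and upper-quartile factors, library size alone, TMM without red cell genes, other filters, only the ages compared, library letter as a block, DESeq2 1.42.0, limma-voom (limma 3.58.1), copies summed and each library left out; for shares, pooled counts and added minor globins. Counts per unshared 75-base window were added after the data were seen.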

Additional observations from a re-analysis of the deposited data

How the results depend on the processing

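Of 809 alternative fold changes of the 9 genes, 765 kept direction and side of the threshold, 22 missed it, 17 passed it anew and 5 lost their sign. For Hbb-bs from E13 to E17 it was -0.01 with library size alone and -0.04 without E17 C, within -0.04 to 0.41 with 1 library left out; the cause was not tested. For P1 against E17, leaving out P1 B, which held 58, 12 and 2 of the 62, 13 and 2 counts at P1, gave -0.65 for Hbb-y, -0.56 for Hba-x and 0.0 for Hbb-bh1, within ranges of -0.65 to 3.18, -0.56 to 5.04 and 0.0 to 3.06. The number of genes called ran from 6 to 8 at E13 against E11, 4 to 6 at E17 against E13, 3 to 5 at P1 against E17, 8 to 9 at P1 against E11 and 8 to 9 across the ages with 1 library left out. It was 3 of 7 at P1 against E17 with the near copies summed, where fewer genes were tested. Library size alone moved the median log2 fold change of all genes to -0.22 at E17 against E13 and -0.265 at P1 against E11, and the share of higher calls there to 39.8 and 41.5%, from 49.8 and 49.2%. With the library letter as a replicate block, which pairs no animals by the labels, 8, 6, 6, 8 and 9 genes were called, and Hba-a2 (-1.09, edgeR adjusted p = 0.0267) and Slc4a1 (-2.05, edgeR adjusted p = 0.0134) passed at E17 against E13 and at P1 against E17. From E13 to E17, 8 genes of the red cell membrane list fell under the block, 3 in limma-voom and 2 with no filter.

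Counts per unshared window gave embryonic beta-like shares of 93.2, 61.4 and 0.0181% at E11, E13 and E17, alpha-like embryonic shares of 35 and 8.35% at E11 and E13, alpha-like shares of all globins of 33.8, 41.1, 44.7 and 46.1%, Hbb-bs shares of 70.5, 82.9 and 87.3% at E13, E17 and P1, and Hba-a1 shares of 45.5, 41.3, 37.7 and 38.9%. The ratio of P1 to E11 was 2.59 for Alas2 and 0.0611 for Slc4a1 per globin, against 6.77 and 0.16 as counted. Pooling counts or adding minor globins moved no share by more than 1 SD.

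With 1 library left out, the embryonic beta-like share ran from 96.4 to 97.3, 77.0 to 84.0, 0.0399 to 0.0543 and 0.166 to 2.33% at the 4 ages and the alpha-like one from 66.3 to 74.2, 25.0 to 33.8, 0 to 0.0384 and 0.0448 to 0.861%, with exact permutation p of 6.5e-05 to 0.00039 and 6.5e-05 to 0.00045. At E17 and P1 the embryonic globins rest on 0 to 58 counts per library, which limits their shares.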

Other observations

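The P1 library B held 58 counts of Hbb-y, 12 of Hba-x and 2 of Hbb-bh1, against 1, 1 and 0 in P1 A and 3, 0 and 0 in P1 C. Its total count (41616842) lay between those of the others (40473592 and 45555438). Its adult globins did not stand out, with 452 counts of Hba-a1 and 1085 of Hbb-bs against 690 and 1525 in P1 A and 454 and 909 in P1 C. Hbb-y was the higher of Hbb-y and Hba-x here, as it was in every E11 and E13 library. The difference from the other two libraries was not tested.

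The E11 library C combined the largest Hbb-bh1 share of embryonic beta-like counts (16.7%, read in the 7 libraries with enough counts), the largest embryonic alpha-like share (79.0%) and the smallest Hbb-bs share of adult beta counts (17.8%) of the 12 libraries. Its total of globin counts, 293431, lay between those of E11 B (189237) and E11 A (539935).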
